A study of Mus musculus with 4 samples.

Results

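MPC11 is a mouse plasmacytoma line, a tumour of antibody-secreting plasma cells, and the 10 genes described here encode transcription regulators of B cells that the plasma cell programme is known to shut down. They are Pax5, Ebf1, Irf8, Spib, Sfpi1 (which encodes PU.1), Ets1, Bcl6, Bach2, Foxp1 and Id3. They were taken by gene symbol from the 22722 genes of the deposited read count tables, and all 10 were listed. Total RNA of 4 cultures was sequenced on the SOLiD platform. Of these, 2 carried a lentiviral pLKO.1 hairpin against Ell2 (Ell2-KD, hairpin 1C7) and 2 carried the same kind of vector whose hairpin targets GFP, absent from mouse cells (shGFP). All cultures were exposed to virus for 18 h, selected with puromycin for 72 h and expanded for a further 72 h. The labels name 1 hairpin against Ell2 and describe each pair as biological replicates; no separate transductions are stated, so the p-values measure only the spread between these samples, which may be technical. Ell2 encodes an elongation factor of RNA polymerase II that is abundant in plasma cells.

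In B cells, Pax5, Ebf1 and the ETS and IRF factors hold the B cell programme in place by switching on genes of the B cell receptor and of antigen presentation, while Bcl6 and Bach2 repress Prdm1, the gene of Blimp-1. When a B cell becomes a plasma cell, Blimp-1 rises and represses several of these genes, and Irf4 and Xbp1 take over. Irf8 and PU.1 also act in myeloid cells, and Ets1 and Id3 in T cells.

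The hairpin's target was low in both depleted libraries: Ell2 had 87.8 and 115 CPM (counts relative to the library total, scaled by TMM) in Ell2-KD replicates 1 and 2, against 938 and 996 CPM in shGFP replicates 1 and 2 (edgeR quasi-likelihood test, adjusted p = 0.00032). Library totals ran from 3496471 counts (Ell2-KD replicate 2) to 13914488 (Ell2-KD replicate 1), so the low members rest on few reads in the shallow library. The 10 plasma cell markers that were looked for all had counts in every library and a negative log2 fold change, with a median of -0.34 and none passing the test used below. Their sum was 17450 and 14252 CPM in Ell2-KD and 21530 and 16882 CPM in shGFP, and among them Sdc1, the plasma cell proteoglycan CD138, stood at 478 and 347 CPM in Ell2-KD and 784 and 648 CPM in shGFP. The marker with the smallest p was Tnfrsf17, the survival receptor BCMA, with 18 and 1 counts in Ell2-KD and 159 and 126 counts in shGFP, a log2 fold change of -4.56 ± 0.81 (SE) that did not pass (edgeR adjusted p = 0.18). Like Irf8 below, it had enough reads to be tested in shGFP alone. The 15 B cell markers summed to 2127 and 2200 CPM in Ell2-KD and 1703 and 1765 CPM in shGFP, mostly from Cd79b and Ms4a1. The higher sum in Ell2-KD came from Ms4a1, at 836 and 941 CPM in Ell2-KD and 378 and 348 CPM in shGFP. Without it the sums were not higher in Ell2-KD. Of the 5 tested, 2 had a positive and 3 a negative change (median -0.045), none passing. Summed over 15 myeloid markers the level was 18.5 and 52.1 CPM in Ell2-KD and 29.8 and 34.1 CPM in shGFP, with Fcgr3 and S100a8 at 0 in all 4 libraries. Over 13 T and NK cell markers the sum was 10.0 and 16.4 CPM in Ell2-KD and 11.6 and 14.5 CPM in shGFP, with Cd28 the largest part in every library. Both sums overlapped between the groups, and the part of other cell types in the results below was not tested. Over 7 fibroblast and epithelial markers it was 445 and 597 CPM in Ell2-KD and 490 and 633 CPM in shGFP, nearly all of it from Epcam, and the collagen gene Col1a1 stood at 0.28 and 0 CPM in Ell2-KD and 0.60 and 1.39 CPM in shGFP.

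The members were far from uniformly silent in this line. Levels of different genes were compared as CPM per kb of annotated exon, and each place is a position among the 10888 tested genes with a known exon length, whose median was 8.02 in Ell2-KD and 8.05 in shGFP. Ets1 was the highest, at 17.2 ± 3.26 CPM per kb in Ell2-KD and 18.6 ± 4.72 in shGFP (SD, n = 2 each), above 70.2% and 72.6% of those genes. Pax5 was at 0 in Ell2-KD and at 0.21 ± 0.27 CPM per kb in shGFP, above 2.5% of those genes in shGFP. In shGFP, Pax5, Bach2 and Spib stood above 5.01% of those genes or fewer, while Ets1, Sfpi1 and Foxp1 stood above 72.6%, 47.0% and 32.8%. The 10 thus cannot all be called silent in this line, although only Ets1 lay above the median in shGFP. No B cells were sequenced, so a fall from the level in B cells was not tested.

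In shGFP the order of mean levels per kb was Ets1, Sfpi1 (7.13 ± 2.80), Foxp1 (4.02 ± 0.56), Ebf1 (2.54 ± 1.09), Bcl6 (1.83 ± 0.36), Irf8 (1.31 ± 0.38), Id3 (1.29 ± 0.69), Bach2 (0.37 ± 0.21), Pax5 and Spib (0.090 ± 0.068). The library values of neighbours in this order overlapped from Ebf1 to Id3 and again from Bach2 to Spib, so the order inside those stretches is not resolved. In Ell2-KD the order was Ets1, Foxp1 (10.7 ± 1.76), Sfpi1 (5.35 ± 2.04), Id3 (4.40 ± 0.95), Ebf1 (1.86 ± 0.33), Bcl6 (1.81 ± 0.34), Spib (0.64 ± 0.32), Bach2 (0.33 ± 0.038), Irf8 (0.015 ± 0.021) and Pax5. There, Sfpi1 overlapped Id3, Ebf1 overlapped Bcl6, and Irf8 overlapped Pax5. Foxp1 thus stood above 58.3% of genes in Ell2-KD against 32.8% in shGFP, and Irf8 above 0.11% against 14.8%. With the length of the longest transcript in place of all exons, Foxp1 read 20.6 CPM per kb in Ell2-KD and 7.70 in shGFP and Ets1 28.7 and 31.1, the order changed in Ell2-KD between Ebf1 and Bcl6, and Sfpi1 and Foxp1 overlapped in shGFP.

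**Figure D1:**
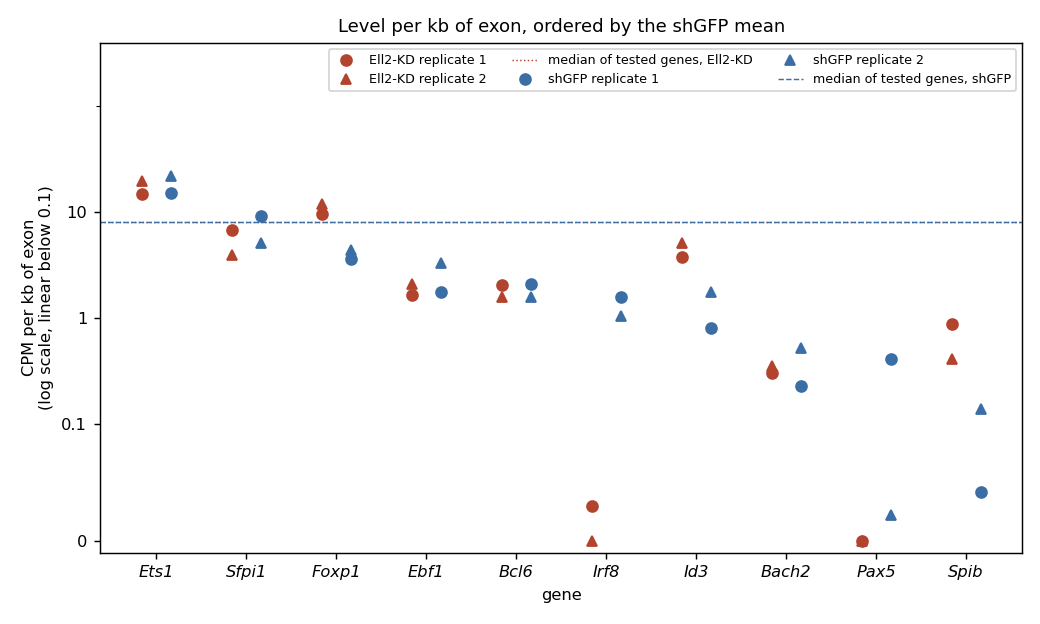
Level of each member in CPM per kb of exon (vertical axis, log scale that is linear below 0.1) in each library, Ell2-KD in red and shGFP in blue, with circles for replicate 1 and triangles for replicate 2. Genes run by their shGFP mean from Ets1 to Spib, and dashed and dotted lines mark the median of tested genes near 8 CPM per kb.

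Of the 10 members, 8 had enough reads to be tested for a difference between Ell2-KD and shGFP, and Pax5 and Spib did not. By edgeR's quasi-likelihood test, adjusted after Benjamini and Hochberg across the 11027 genes that qualified, 0 of the 8 passed the threshold of 0.05, where 0.0453% of all tested genes did. At an unadjusted p under 0.05, 2 of the 8 (Foxp1 and Irf8) were reached, against 5.82% of all tested genes. With DESeq2 on the same genes both of them passed after adjustment, where 0.39% of tested genes did. With 1 library left out, edgeR passed both without Ell2-KD replicate 1 (1.24% of all tested genes), Irf8 without Ell2-KD replicate 2 (0.688%), and neither without shGFP replicate 1 (0.122%) or shGFP replicate 2 (0.187%). Of the 8, 2 had a positive and 6 a negative log2 fold change, with a median of -0.15 beside -0.0015 over all genes tested. In 3 of the 8 (Foxp1, Id3 and Irf8) the values of Ell2-KD and shGFP did not overlap, which held for 35.8% of all tested genes. Genes had to reach 1.49 CPM, on unscaled library totals, in 2 libraries to be tested, so these 8 are not the whole group. Irf8 reached that level in the 2 shGFP libraries and in 0 of the Ell2-KD ones, so it could be tested only because it was high in shGFP, and the counts over the 8 are given as a description. Id3 reached it in 2 Ell2-KD libraries and 1 shGFP library, and the other 6 in all 4.

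**Figure D2:**
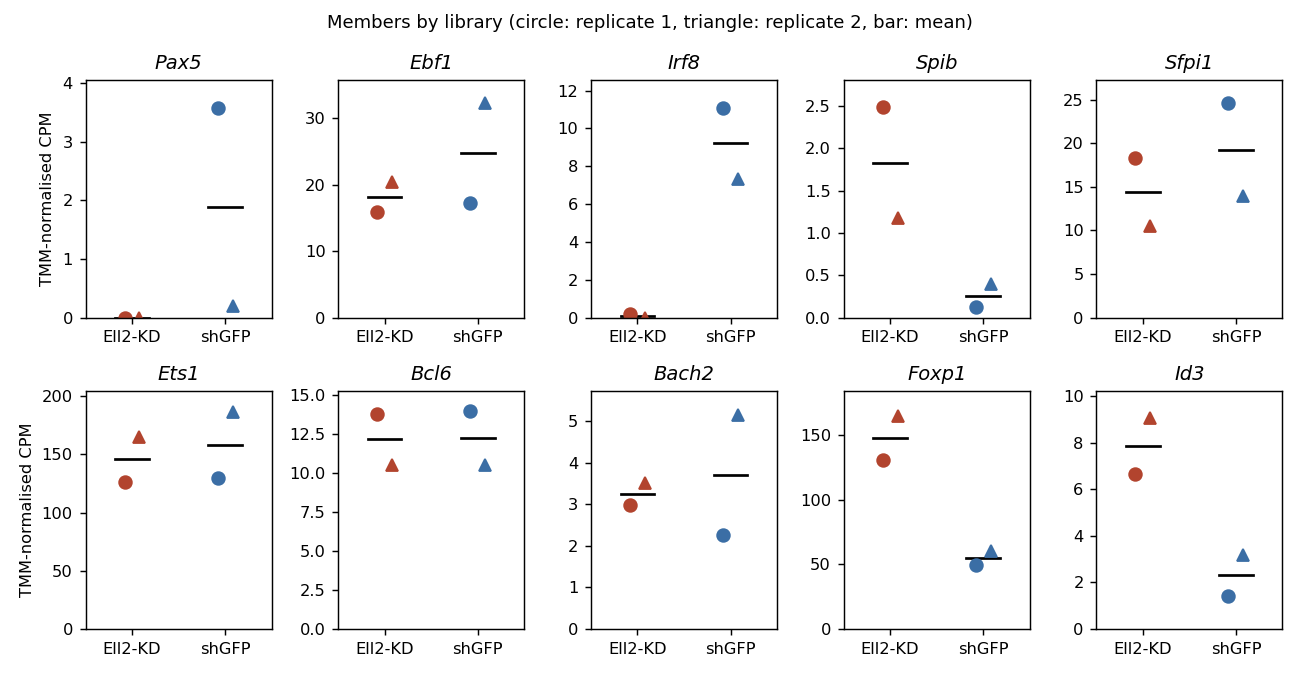
TMM-normalised CPM of each member (vertical axes, linear from 0, each with its own range) in Ell2-KD (red, left) and shGFP (blue, right), with circles for replicate 1, triangles for replicate 2 and bars for the mean of the 2 libraries. Foxp1, Id3 and Spib lie higher and Irf8 and Pax5 lower in both depleted libraries, and the other 5 genes overlap between groups. For Pax5, shGFP replicate 2 holds 1 count against 0 in each depleted library, and Spib in Ell2-KD replicate 2 rests on 4 counts. Groups did not overlap for 35.8% of all tested genes, and Pax5 and Spib were not tested.

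The B cell commitment factors differed in how far they were expressed. Pax5, which fixes B cell identity and represses plasma cell genes, had 0 and 0 counts in Ell2-KD replicates 1 and 2, against 30 and 1 counts in shGFP replicates 1 and 2. The pooled shGFP level was 13.5 times a floor of 3 counts over the Ell2-KD group (0.17 CPM). This fold leaves out the counting error of the shGFP reads and any spread between cultures. It rests on shGFP replicate 1, since the 1 count of shGFP replicate 2 lies under that library's own floor of 0.60 CPM and gives no fold. Antisense and other transcripts on the opposite strand overlap exons of Pax5 in the GENCODE M21 annotation, and the strand setting of the counting is not given in the sources used here.

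Ebf1, which acts with Pax5 to open B cell genes, had 15.9 and 20.5 CPM in Ell2-KD, against 17.3 and 32.3 CPM in shGFP. The groups overlapped, and shGFP replicate 2 stood apart as the highest. The log2 fold change was -0.45 ± 0.50 (SE), with a 95% interval of -1.56 to 0.66 (edgeR adjusted p = 0.98), and it turned to 0.065 without shGFP replicate 2. Its relative Ebf3 was more abundant, at 29.2 ± 10.4 CPM per kb in Ell2-KD and 17.0 ± 0.62 in shGFP, where Ebf1 had 1.86 and 2.54. Ebf3 read 202 and 337 CPM in Ell2-KD and 161 and 153 CPM in shGFP, with a log2 fold change of 0.78 ± 0.28 that did not pass (edgeR adjusted p = 0.75).

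Irf8, an interferon regulatory factor that binds DNA with PU.1 or Spi-B at B cell genes, was almost without reads in the depleted libraries. It had 3 and 0 counts (0.21 and 0 CPM) in Ell2-KD, against 93 and 37 counts (11.1 and 7.34 CPM) in shGFP. The groups lay far apart, and the deepest library, an Ell2-KD one, held only 3 reads of it. On pooled counts the level was 56.5-fold lower in Ell2-KD, with an exact conditional binomial 95% interval of 18.9 to 278 that covers counting error only. The edgeR log2 fold change was -5.80 ± 1.38 (SE; 95% interval -8.83 to -2.76), and Irf8 stood at place 35 of 11027 by p but did not pass (edgeR adjusted p = 0.45). Since it entered the test through its shGFP reads alone, its place and p are not read as support for a difference. It passed with DESeq2 (adjusted p = 0.019), in edgeR without Ell2-KD replicate 1 (0.016; log2 fold change -8.70, which depends on the prior count since the remaining depleted library is at 0) and without Ell2-KD replicate 2 (0.023). It did not pass without shGFP replicate 1 (1.00) or shGFP replicate 2 (0.41). The pooled ratio with 1 library left out, added after seeing the data, was 42.9-fold to 64.7-fold lower in Ell2-KD where depleted reads remained. Without Ell2-KD replicate 1, the pooled shGFP level was 11.02 times the floor of 3 counts over Ell2-KD replicate 2. That value leaves out the counting error of the shGFP reads. In bulk RNA, fewer cells with the transcript and less of it per cell cannot be told apart. Irf8 is also a myeloid gene, and the part of myeloid cells in its level was not tested. Irf4, its plasma cell relative, read 1615 and 1267 CPM in Ell2-KD and 1871 and 1623 CPM in shGFP, which puts the pair at 294 against 0.015 CPM per kb in Ell2-KD and 356 against 1.31 in shGFP.

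The 3 ETS factors of the group differed widely in level. Spib (Spi-B), which cooperates with IRF factors in B cells, had 35 and 4 counts in Ell2-KD, against 1 and 2 counts in shGFP. Scaled to depth, both depleted libraries were higher, at 2.48 and 1.17 CPM against 0.12 and 0.40 CPM in shGFP, although 35 of the 39 Ell2-KD reads came from replicate 1. The pooled level was 9.97-fold higher in Ell2-KD, with an exact conditional binomial 95% interval of 3.17 to 50.4 for counting error only. Without Ell2-KD replicate 1, a setting added after seeing the data, it was 5.24-fold higher with an interval of 0.89 to 35.8, which includes no difference. It was 11.1-fold higher (3.50 to 56.5) without Ell2-KD replicate 2 and 5.61-fold (1.45 to 48.0) without shGFP replicate 1. Without shGFP replicate 2 it was 18.7-fold (3.16 to 757), which rests on 1 shGFP count. With no filter on low counts edgeR gave it an adjusted p of 1.00 and Pax5 one of 0.86, so neither passed.

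Sfpi1, whose product PU.1 controls myeloid and early B cell genes, had 18.3 and 10.5 CPM in Ell2-KD, against 24.6 and 13.9 CPM in shGFP. The groups overlapped, and replicate 1 was the higher one in each. The log2 fold change was -0.40 ± 0.56 (SE; 95% interval -1.63 to 0.82; edgeR adjusted p = 0.99), and it was 0.078 without shGFP replicate 1. Ets1, which holds back plasma cell differentiation in B cells, had 126 and 165 CPM in Ell2-KD, against 130 and 186 CPM in shGFP. These groups overlapped as well, and the 95% interval of the log2 fold change (-0.12 ± 0.28, SE) ran from -0.73 to 0.50 (edgeR adjusted p = 1.00). Its interval is the narrowest of the 8 and excludes a change of 2-fold in either direction on this test's own error, though its sign turned without Ell2-KD replicate 1 (0.069) or shGFP replicate 2 (0.16).

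The repressors that keep Prdm1 off in B cells were low and overlapped between groups. Bcl6, the repressor of germinal centre B cells, had 13.8 and 10.5 CPM in Ell2-KD, against 14.0 and 10.5 CPM in shGFP. Replicates with the same number read alike, and the log2 fold change was -0.0057 ± 0.60 (SE; 95% interval -1.33 to 1.32; edgeR adjusted p = 1.00), a value whose sign turned under 6 of 13 alternatives. Bach2 had 42 and 12 counts in Ell2-KD, against 19 and 26 counts in shGFP. At 2.98 and 3.51 CPM the depleted libraries lay between the shGFP values of 2.27 and 5.16 CPM, and the interval of the log2 fold change (-0.19 ± 1.17, SE) ran from -2.77 to 2.39 (edgeR adjusted p = 1.00), so a change of several-fold was not detectable at this depth. Its sign turned without shGFP replicate 2 (0.51). An antisense gene overlaps exons of Bach2 in GENCODE M21. Prdm1 itself read 272 and 238 CPM in Ell2-KD and 384 and 282 CPM in shGFP. Its log2 fold change of -0.39 ± 0.24 (SE) did not pass (edgeR adjusted p = 0.91). Its groups did not overlap, which held for 35.8% of all tested genes.

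Foxp1, a forkhead transcription factor that is known to oppose plasma cell differentiation, had the smallest p of the 8 tested members. It had 1842 and 563 counts in Ell2-KD, against 418 and 306 counts in shGFP. In CPM these are 131 and 165 in Ell2-KD, against 49.8 and 60.7 in shGFP, and the lowest depleted library lay above the highest control. The level was 2.67-fold higher in Ell2-KD, a log2 fold change of 1.42 ± 0.29 (SE; 95% interval 0.77 to 2.06), at place 20 of 11027 by p, but it did not pass (edgeR adjusted p = 0.29). With 1 library left out it ranged from 1.25 to 1.58, and it passed in edgeR without Ell2-KD replicate 1 (adjusted p = 0.0061) and with DESeq2 (0.0059), but in edgeR not without Ell2-KD replicate 2 (0.096), shGFP replicate 1 (0.49) or shGFP replicate 2 (0.14). A log2 fold change at least this large in either direction was seen in 638 of the 11027 genes tested. Exons of Foxp1 overlap 300 bases of Gm20696 on the same strand in GENCODE M21, so reads of that stretch cannot be assigned to Foxp1 alone. The relative Foxp4 stood at 6.34 ± 1.99 CPM per kb in Ell2-KD and 5.90 ± 0.94 in shGFP, where Foxp1 had 10.7 and 4.02.

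Id3, which blocks the E proteins that drive B cell genes, had 94 and 31 counts in Ell2-KD, against 12 and 16 counts in shGFP. At 6.67 and 9.07 CPM in Ell2-KD, against 1.43 and 3.17 CPM in shGFP, the groups did not overlap. The log2 fold change was 1.78 ± 1.03 (SE; 95% interval -0.49 to 4.05; edgeR adjusted p = 0.91), and it ranged from 1.31 to 2.44 with 1 library left out. Id2, the relative that Bcl6 is known to repress, stood at 8.36 ± 0.61 CPM per kb in Ell2-KD and 5.69 ± 2.31 in shGFP, where Id3 had 4.40 and 1.29.

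**Figure D3:**
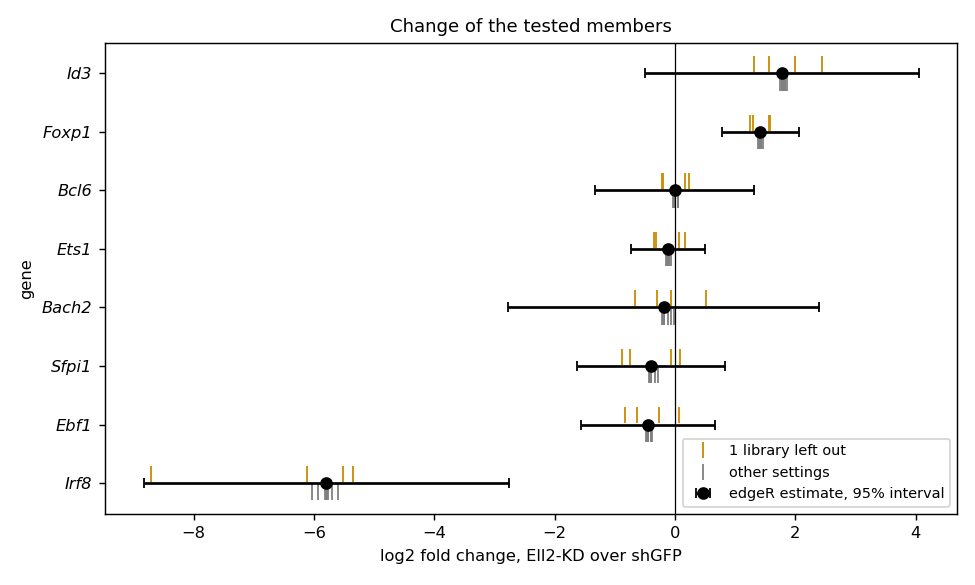
Log2 fold change, Ell2-KD over shGFP (horizontal axis), of the 8 tested members with edgeR's 95% interval (points and bars), the values with 1 library left out (orange ticks) and those under the other settings (grey ticks). The intervals of Foxp1 (0.77 to 2.06) and Irf8 (-8.83 to -2.76) lie on 1 side of 0, and those of the other 6 genes include 0.

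Promoter windows are shown for the 3 tested members whose groups did not overlap, none of which passed the test, and for those that hold the ETS and IRF composite described below. Pax5 and Spib, which were not tested, are not shown. RefSeq promoter windows (build GRCm38.p6) were matched by symbol for 8 of the 10 genes, 13 windows in all, and the 250 bases before each start were searched on both strands. The windows of the 3 tested members whose groups did not overlap are given 5′ to 3′ on the gene's strand, for the farthest upstream start, with the ETS core GGAA in capitals on either strand (as TTCC on the other).
Irf8, chr8:120736108-120736357, plus strand: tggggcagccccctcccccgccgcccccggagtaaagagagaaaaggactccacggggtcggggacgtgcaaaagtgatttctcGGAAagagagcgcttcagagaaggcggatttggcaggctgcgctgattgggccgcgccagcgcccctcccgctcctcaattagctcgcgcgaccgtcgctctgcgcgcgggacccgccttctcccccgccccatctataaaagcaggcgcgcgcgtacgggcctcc
Foxp1, chr6:99520994-99521243, minus strand: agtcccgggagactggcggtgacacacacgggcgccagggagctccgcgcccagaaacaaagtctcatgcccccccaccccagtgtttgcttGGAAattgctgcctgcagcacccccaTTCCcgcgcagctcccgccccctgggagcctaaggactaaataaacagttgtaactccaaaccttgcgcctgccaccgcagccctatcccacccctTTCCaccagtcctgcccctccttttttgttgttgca
Id3, chr4:136143572-136143821, plus strand: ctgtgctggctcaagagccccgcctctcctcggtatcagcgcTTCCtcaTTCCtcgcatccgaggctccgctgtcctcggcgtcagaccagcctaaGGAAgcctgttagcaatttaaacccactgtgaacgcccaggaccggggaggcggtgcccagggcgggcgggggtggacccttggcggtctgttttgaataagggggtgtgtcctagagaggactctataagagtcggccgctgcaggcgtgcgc
The ETS core is common and was present in 12 of the 13 windows and in 93.4% of all 32851 promoter windows of that length, a share near that of promoters in general. The window of Irf8 held 1 match, and those of Foxp1 and Id3 held 3 each.

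A composite of an ETS and an IRF site, searched as GGAA, any 2 bases and then GAAA, is the known site at which PU.1 or Spi-B binds together with Irf4 or Irf8. It was present in 2 of the 13 windows, those of Bach2 and Bcl6, and in 2.30% of all windows. Those windows are printed with the same marking and with all 10 bases of the composite in capitals, where it overlaps the ETS core.
Bach2, chr4:32417185-32417434, plus strand: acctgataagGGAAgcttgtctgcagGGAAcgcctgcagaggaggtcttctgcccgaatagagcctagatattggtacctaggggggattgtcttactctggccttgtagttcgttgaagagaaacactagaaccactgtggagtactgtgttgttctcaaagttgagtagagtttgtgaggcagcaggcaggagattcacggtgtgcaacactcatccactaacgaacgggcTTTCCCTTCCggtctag
Bcl6, chr16:23981284-23981533, minus strand: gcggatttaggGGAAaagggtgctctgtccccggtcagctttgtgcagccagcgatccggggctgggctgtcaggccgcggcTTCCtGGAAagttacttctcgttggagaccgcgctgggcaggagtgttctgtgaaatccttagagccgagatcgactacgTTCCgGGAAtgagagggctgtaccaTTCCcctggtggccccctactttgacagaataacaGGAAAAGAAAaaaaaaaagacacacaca
The match begins 17 bases before the start in Bach2, where it reads TTTCCCTTCC on the gene's strand, and 28 bases before the nearer of 2 annotated starts in Bcl6, where it reads GGAAAAGAAA. The bases checked after that Bcl6 start were not found in a GENCODE M21 transcript of the gene, while those of its other start were. Levels of Bach2 and Bcl6 overlapped between the groups, as given above. The core of the Blimp-1 site, searched as GNGAAAG, was in 5 of the 13 windows (Bach2, Bcl6, Ebf1, Pax5 and Spib, in 1 window each) and in 19.4% of all windows. In Bach2 it overlaps the composite. For the matching windows of Ebf1, Pax5 and Spib, the bases checked after the start were not found in a GENCODE M21 transcript of the gene. The E-box CANNTG, bound by the E proteins that Id3 blocks, was in 8 of the 13 windows and in 66.2% of all. A repeat of GAAA with any 2 bases between, an IRF site, was in 1 of the 13 (Ebf1) and 2.98% of all. The EBF site, searched as TCCC, any 2 bases and GGGA, and the Bach and Maf site TGANTCA were in 0 of the 13 and in 0.78% and 6.75% of all windows. These letter matches are descriptions and no binding was measured.

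The relatives, partners and targets of the members were read from lists of textbook genes. Of 33 genes of the same families, 25 were tested, 16 with a positive and 9 with a negative log2 fold change and a median of 0.10. None passed, where 0.0453% of all tested genes did. Ebf3 (above), Gabpa, an ETS factor, Irf1 and Elk1 had the smallest p. Gabpa read 220 and 167 CPM in Ell2-KD and 123 and 129 CPM in shGFP, and Irf1, an interferon-induced activator, 111 and 109 CPM in Ell2-KD and 50.9 and 84.7 CPM in shGFP. The groups did not overlap for either gene, and their edgeR adjusted p were 0.81 and 0.85. Both were named for their small p, and the same lack of overlap held for 35.8% of all tested genes.

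Among 30 partners and cofactors, 29 were tested, 20 with a positive and 9 with a negative change, a median of 0.14 and 0 passing. Tcf3, an E protein that Id3 blocks, stood at 26.4 ± 7.55 CPM per kb in Ell2-KD and 21.6 ± 10.9 in shGFP. Stat6, a signal transducer that can bind the same sites as Bcl6, had 25.7 and 55.3 CPM in Ell2-KD and 7.87 and 21.0 CPM in shGFP (edgeR adjusted p = 0.79), and Tle4, a Groucho corepressor that can bind Pax5, 144 and 181 CPM in Ell2-KD and 110.2 and 102 CPM in shGFP (0.83). Ikzf3, the B cell zinc finger Aiolos, had 15.9 and 18.4 CPM in Ell2-KD and 30.9 and 35.7 CPM in shGFP (0.85). None of these 3 overlapped between the groups, and none passed. They were named for their small p, and groups did not overlap for 35.8% of all tested genes, so the lack of overlap is a description only.

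Many genes that Pax5, Ebf1 or PU.1 switch on in B cells were too low to be tested. Of 28, 14 were tested, 7 with a positive and 7 with a negative change, with a median of 0.20 and none passing. The 13 that were listed but not tested included Cd79a, Cd22, Blk and Ciita. Sdc4, a syndecan, had 505 and 436 CPM in Ell2-KD and 265 and 212 CPM in shGFP, a log2 fold change of 0.98 ± 0.22 that did not pass (edgeR adjusted p = 0.42). Ms4a1, which encodes CD20, had 836 and 941 CPM in Ell2-KD and 378 and 348 CPM in shGFP (edgeR adjusted p = 0.086). Cd24a had 86.4 and 123 CPM in Ell2-KD and 28.6 and 35.1 CPM in shGFP (0.26). Pou2af1, a coactivator at octamer sites, had 622 and 476 CPM in Ell2-KD and 1125 and 905 CPM in shGFP (0.47). It is also in the lists of partners, plasma cell factors and plasma cell markers. Sdc4, Ms4a1, Cd24a and Pou2af1 were named for their small p. Groups did not overlap for 35.8% of all tested genes, so the lack of overlap is a description only.

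Genes that the members repress were found on both sides of 0. Of 11 genes repressed by Pax5, 7 were tested, 3 with a positive and 4 with a negative change, with a median of -0.011 and none passing. The receptor gene Notch1 read 114 and 121 CPM in Ell2-KD and 104 and 104 CPM in shGFP, and the integrin gene Itgb3 31.5 and 43.0 CPM in Ell2-KD and 26.1 and 28.6 CPM in shGFP. Igj, which encodes the J chain of secreted antibody, read 9225 and 8458 CPM in Ell2-KD and 11718 and 9839 CPM in shGFP, a log2 fold change of -0.29 ± 0.16 that did not pass (edgeR adjusted p = 0.88). Of 23 genes repressed by Bcl6 or Bach2, 18 were tested, 9 in each direction, with a median of -0.031 and none passing. Hmox1, the heme oxygenase gene that Bach factors repress, had 20 and 1 counts in Ell2-KD and 116 and 76 counts in shGFP, a log2 fold change of -3.87 ± 0.95 that did not pass (edgeR adjusted p = 0.47), and it too could be tested through its shGFP reads alone. Bach2 overlapped between the groups. Bach1, the more abundant relative, stood at 17.5 ± 1.06 CPM per kb in Ell2-KD and 14.2 ± 0.48 in shGFP. Its log2 fold change of 0.29 ± 0.27 did not pass (edgeR adjusted p = 0.97). A link between the level of Hmox1 and either Bach gene was not tested. Bcl2 had 29.9 and 33.4 CPM in Ell2-KD and 10.0 and 12.1 CPM in shGFP, and its relative Bcl2l1 160 and 151 CPM in Ell2-KD and 106 and 85.9 CPM in shGFP, with edgeR adjusted p of 0.65 and 0.78.

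Of 14 plasma cell factors, all were tested, 4 with a positive and 10 with a negative change and a median of -0.20. Ell2 was the 1 that passed, and as the hairpin's target its fall was set by the design. It is counted in the 10 and in the median, so neither describes the other plasma cell factors alone. Atf6, a sensor of endoplasmic reticulum stress, had 288 and 288 CPM in Ell2-KD and 432 and 470 CPM in shGFP (edgeR adjusted p = 0.67). Xbp1 read 3971 and 2251 CPM in Ell2-KD and 4229 and 2223 CPM in shGFP, so the difference between replicate numbers exceeded that between groups.

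**Figure D4:**
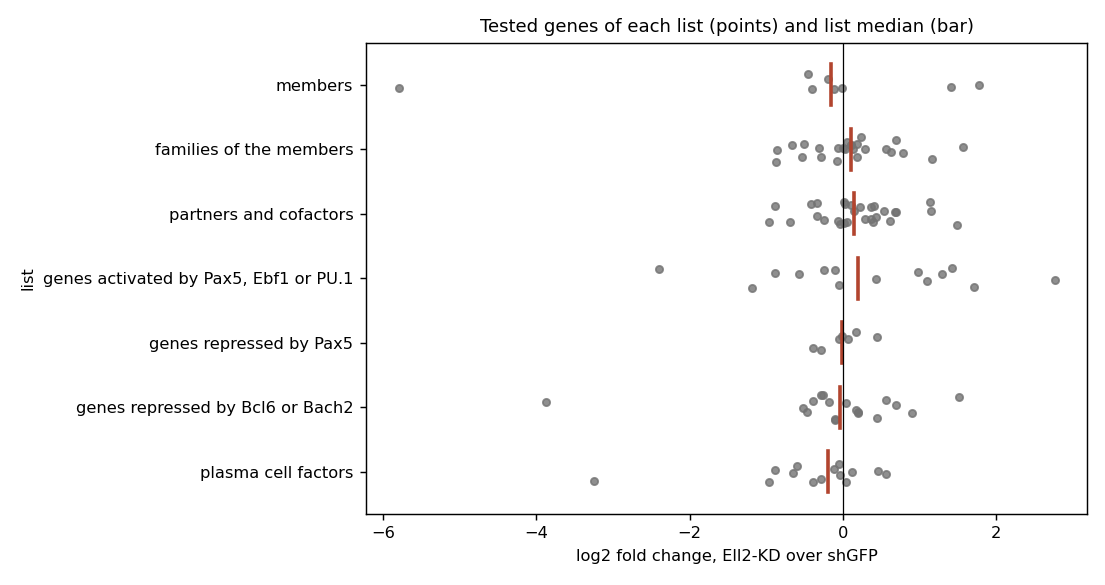
Log2 fold change, Ell2-KD over shGFP (horizontal axis), of the tested genes among the members and in the lists of families, partners, activated genes, repressed genes and plasma cell factors (grey points, 1 per gene, spread vertically for legibility), with the list median as a red bar. Medians of the lists drawn run from -0.20 for the plasma cell factors, which include the hairpin's target Ell2, to 0.20 for genes activated by Pax5, Ebf1 or PU.1. The leftmost point among the members is Irf8 and the leftmost plasma cell factor is Ell2.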

How the data were processed

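The authors deposited 1 table of raw read counts per gene symbol for each of the 4 libraries, per the file headers, and all list the same 22722 genes. HTSeq 0.5.3, SAMtools 0.1.11, DESeq 1.4.1 and the build mm9 stand in the submitters' processing notes; which aligner, annotation and strand setting made the counts is not given in the sources used here. The main test ran in edgeR 4.0.16 under R 4.3.3: filterByExpr (minimum count 10, minimum total 15) kept 11027 genes, scaling was TMM, and glmQLFit (robust) and glmQLFTest (two-sided) had group as the only term. The adjustment (Benjamini-Hochberg) covered every tested gene, and adjusted p under 0.05 counted as passing. The SE is the log2 fold change divided by the root of F. A ± value is the SD of 2 libraries, or of a log2 fold change the SE. The fit was tested on simulated data. Alternatives used DESeq2 1.42.0, limma 3.58.1, other scalings and filters, a replicate block and leaving out each library. Exon lengths and overlaps come from GENCODE M21 (GRCm38), matched by symbol for 21286 genes; the counts' own annotation may differ. The members, lists and tests were chosen with earlier results of these data known. Named were all members, Ell2, Prdm1, Irf4, Xbp1, Id2 and, per list, genes past the threshold or up to 4 with the smallest p, of which the text gives some. Relatives and markers given for their level (Foxp4, Bach1, Tcf3, Igj, Sdc1, Tnfrsf17, Cd79b, Cd68, Cebpb, Cd28, Fcgr3, S100a8, Epcam, Col1a1) and the untested genes were picked after their values were seen, except where that rule takes them. Of the genes looked at, 1 is not reported here.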

Additional observations from a re-analysis of the deposited data

How the results depend on the processing

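Over all genes, 5 passed in the fit reported. The count was 2 with library totals only, 2 with a filter of 5 CPM in 2 libraries, 1 without robust settings, 9 with limma-voom, 22 with no filter, 43 with DESeq2, and between 14 and 142 with 1 library left out. Of the members 0 passed in the fit reported, 2 with DESeq2 (Foxp1 and Irf8) and between 0 and 2 with 1 library left out, and 0 under the other scalings and filters, limma-voom and the fit without robust settings. With the replicate number as a block, 28 genes (0.254% of those tested) passed and 1 member, Foxp1 (edgeR adjusted p = 0.036). Same-numbered libraries share only a number in the labels; their deviations correlated at 0.31 across genes. The log2 fold change of Bcl6 was 0.0011 with DESeq2 size factors, 0.054 with no filter, 0.0017 with DESeq2, 0.052 with limma-voom and -0.22 to 0.23 with 1 library left out. With 1 library left out Bach2 ranged from -0.66 to 0.51, Ebf1 from -0.83 to 0.065, Sfpi1 from -0.87 to 0.078 and Ets1 from -0.34 to 0.16. The cause was not tested. Foxp1, Id3 and Irf8 kept their direction under all 13 alternatives. With the longest transcript in place of all exons, levels per kb were higher for all members with reads, and in Ell2-KD Bcl6 (3.09) then stood above Ebf1 (3.04). Counting intervals and floors cover counting error only, and the 3496471 counts of Ell2-KD replicate 2 limit Pax5, Spib, Irf8, Bach2 and Id3.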
